A study of Mus musculus with 20 samples.

Results

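Blood stem and progenitor cells of Tet2 knockout mice (Tet2-/-) were compared directly with those of mice carrying the Idh2 mutation R172K (Idh2R172K/+), with no wild type in the test. The comparison used 8 of the 20 libraries in the series, 4 per genotype, and every gene with a mean of at least 1 TPM (transcripts per 1000000) over those 8 libraries, which left 14455 of 46078 genes. Tet2-/- mice have both copies of Tet2 inactivated, and their label names neither a Cre driver nor the deleted exons. Idh2R172K/+ mice carry 1 conditional Idh2LSL-R172K allele and Vav-Cre, a recombinase transgene that is active in blood-forming cells. All mice were C57Bl/6J and 3 to 4 months old. Every library came from the total RNA of 2 pooled mice, so differences between single animals are averaged within a pool. The cells were bone marrow cells sorted as Lin-cKit+Sca1+ (LSK), a fraction that contains stem cells and multipotent progenitors. The remaining libraries were 4 each of Idh2R140Q/+, Idh1R132H/+ and wild type with Vav-Cre (WT), and their levels are given below only as a description. Because Vav-Cre was present in one genotype and not named in the other, Cre and mutation cannot be told apart here.

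Tet2 encodes an enzyme that oxidises methylated cytosine in DNA and needs 2-oxoglutarate as a co-substrate. Idh2 is the mitochondrial isocitrate dehydrogenase that makes 2-oxoglutarate, and the R172K mutant instead reduces it to 2-hydroxyglutarate, an inhibitor of Tet enzymes and of other 2-oxoglutarate-dependent dioxygenases. Both mutations are found in human myeloid leukaemias, and the comparison asks how far loss of the enzyme and the gain of its inhibitor leave LSK cells with different RNA.

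Assigned reads, recovered from the TPM values, were 35.1 to 37.8 M in the Tet2-/- libraries and 38.7 to 43.1 M (M, 1000000 reads) in the Idh2R172K/+ libraries. The rRNA-like Gm23935 led every library, with 9.57 to 20.0% of TPM in Tet2-/- and 8.13 to 12.5% in Idh2R172K/+, with the 20.0% in Tet2-/- replicate 2. That library stood apart from the other 3 of its genotype. Correlations of log2(TPM + 1) were 0.941 to 0.978 within Tet2-/-, 0.955 to 0.977 within Idh2R172K/+ and 0.888 to 0.957 between them. Each genotype held 2 pools with male and 2 with female sex-linked RNA, but replicate 1 was male in Tet2-/- and female in Idh2R172K/+, and replicate 4 the reverse.

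**Figure D1:**
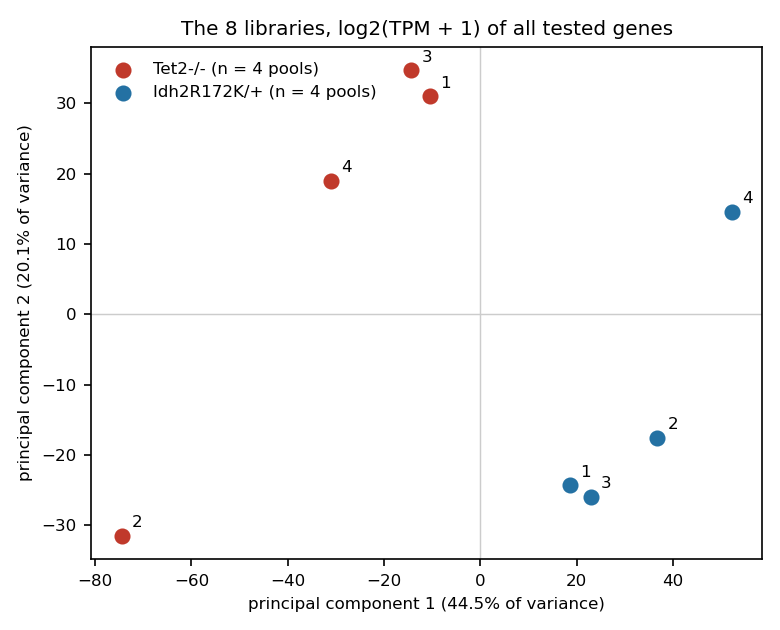
Position of the 8 libraries on the first 2 principal components of log2(TPM + 1) over the tested genes, with replicate numbers beside the points. Component 1 (44.5% of the variance) has all Tet2-/- libraries below 0 and all Idh2R172K/+ libraries above it, and Tet2-/- replicate 2 lies farthest from its group at -74.5.

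The genes that define the sort were present in both genotypes. Ly6a, which encodes the Sca1 antigen of the gate, had 273, 350, 271 and 272 TPM in Tet2-/- and 115, 144, 141 and 122 TPM in Idh2R172K/+. All Tet2-/- libraries lay above all Idh2R172K/+ libraries, and the log2 difference was 1.15 ± 0.13 (SE of the limma fit on log2(TPM + 1), adjusted p = 0.00073). Kit, the stem cell factor receptor and the other gate antigen, had 432, 97.9, 456 and 334 TPM in Tet2-/- and 541, 636, 562 and 622 TPM in Idh2R172K/+. The groups did not overlap, but Tet2-/- replicate 2 was far below its group, and the difference of -1.05 ± 0.43 was not called (adjusted p = 0.147). Without that library Kit had a difference of -0.54 and passed the test (adjusted p = 0.0217). Ptprc, the pan-leukocyte antigen CD45, had 28.2 to 61.5 TPM in Tet2-/- and 55.6 to 67.2 TPM in Idh2R172K/+. Lineage antigens that the sort removes were low: Cd3e was at or under 1.08 TPM in Tet2-/- and 1.03 TPM in Idh2R172K/+, and Ly6g at or under 0.342 TPM in Tet2-/- and 0.348 TPM in Idh2R172K/+. Itgam was higher than these, at 11.9 to 36.9 TPM in Tet2-/- and 44.5 to 61.6 TPM in Idh2R172K/+.

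The targeted genes came next. Tet2 (ENSMUSG00000040943, chr3:133463679-133545139 in mm10, minus strand) had 11.2, 5.74, 12.1 and 10.6 TPM in Tet2-/- and 12.0, 14.1, 11 and 14.3 TPM in Idh2R172K/+. The ranges overlapped and the difference of -0.38 ± 0.23 was not called (adjusted p = 0.276), so the gene-level value does not check the knockout: RNA from exons outside a deletion is counted with the rest. Idh2 (ENSMUSG00000030541, chr7:80094846-80115392, minus strand) had 565, 512, 610 and 597 TPM in Tet2-/- and 896, 887, 940 and 1024 TPM in Idh2R172K/+. Every Idh2R172K/+ library was above every Tet2-/- library, by a log2 difference of -0.71 ± 0.09 for Tet2-/- minus Idh2R172K/+ (adjusted p = 0.00142). WT cells had 470 to 647 TPM of Idh2, and Idh2R140Q/+ cells, which carry the other conditional Idh2 allele, 474 to 621 TPM. TPM does not separate the mutant from the normal allele. Idh1, the cytosolic paralogue, had 85.1, 56.0, 91.4 and 88.9 TPM in Tet2-/- and 78.9, 88.6, 87.1 and 72.4 TPM in Idh2R172K/+ and was not called (adjusted p = 0.87).

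The mutants differed in 1152 genes at an adjusted p under 0.05, which is 7.97% of those tested: 805 were higher in Tet2-/- (5.57%) and 347 lower (2.40%). Of these, 431 were at least 2-fold higher and 202 at least 2-fold lower, and 78 and 24 passed 4-fold. The 4 libraries of each genotype did not overlap in 3639 genes, 25.2% of those tested, and in 1142 of the 1152 called. An unadjusted p under 0.05 was reached by 4184 of the 14455 genes. The median log2 difference over all tested genes was -0.06, and 44.4% of genes had a difference above 0. The share of calls that were higher in Tet2-/-, 69.9%, moved with the scaling: it was 52.5% after median-of-ratios scaling, with 1253 higher and 1133 lower, and 57.0% when TPM was rescaled without the most abundant genes, with 1028 higher and 774 lower. Without Tet2-/- replicate 2 the counts were 1426 higher and 845 lower of 14444 genes, and the median over all genes was 0.03. Among these calls were 786 of the 805 and 320 of the 347 original ones. Without Tet2-/- replicate 4 the counts were 425 higher and 119 lower of 14399 genes. Counts of list members without a library, given below, belong beside the counts of the same fit, not beside 5.57% and 2.40%. The limit of 1 TPM applied to the mean of both genotypes, so some genes entered only through the genotype where they were high. Sphk1, Cxcl10, Il18r1, Ms4a2, Ear1 and Ear6 averaged under 1 TPM in Idh2R172K/+, and Sva and Spats2 averaged under 1 TPM in Tet2-/-. For such genes the direction of a call was largely fixed by the filter.

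**Figure D2:**
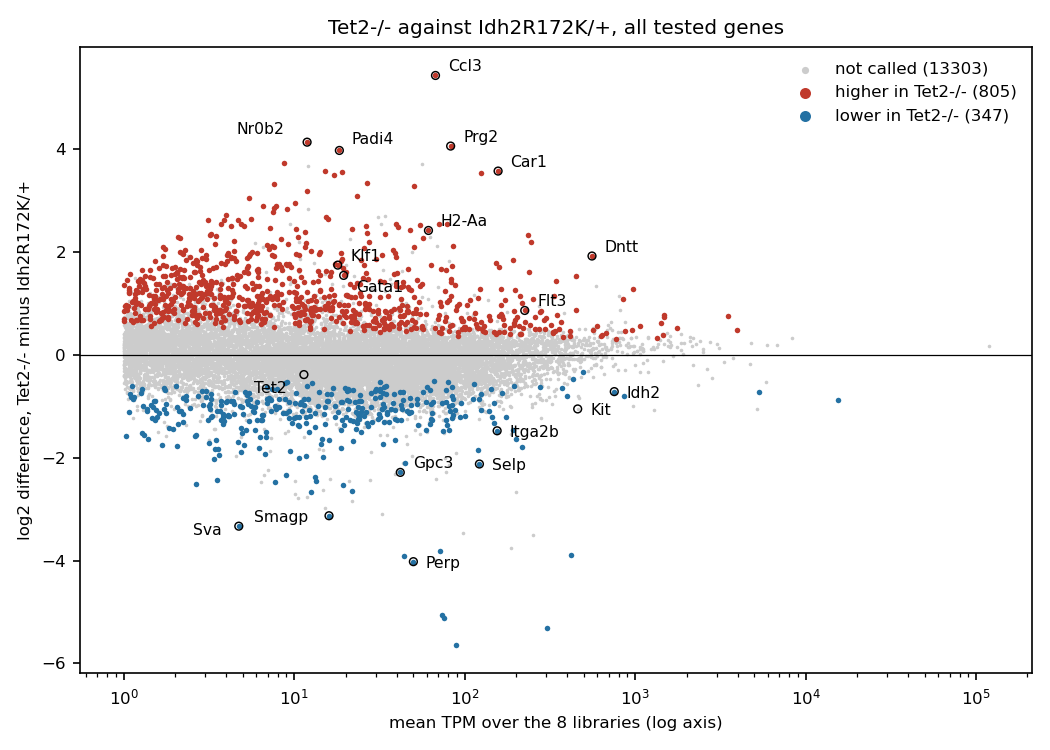
Log2 difference (Tet2-/- minus Idh2R172K/+) of each tested gene against its mean TPM over the 8 libraries, on a log axis. Red genes (805) passed the test and were higher in Tet2-/-, blue genes (347) passed and were lower, and circled genes are described in the text; the lowest blue points are immunoglobulin segments.

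Among the largest rises in Tet2-/-, Ccl3, Nr0b2, Padi4, Gdf3, Ly9 and Psma8 were each at or under 4.49 TPM in every Idh2R172K/+ library, whereas Prg2, Car1 and Prss34, described with their lineages, were not. Ccl3, a chemokine that attracts monocytes and restrains progenitor cycling, had 104, 148, 92 and 187 TPM in Tet2-/- and 1.52, 0.857, 2.03 and 4.49 TPM in Idh2R172K/+ (log2 difference 5.43 ± 0.34, adjusted p = 5.49e-05). The lowest Tet2-/- library was far above the highest Idh2R172K/+ one. WT libraries 1 to 4 had 21.7, 37.5, 33.9 and 142 TPM, so only WT replicate 4 reached the Tet2-/- range. Nr0b2, a nuclear receptor without a DNA-binding domain that represses other receptors, had 21.8, 20.3, 26.0 and 25.2 TPM in Tet2-/- and 0.579, 0.362, 0.29 and 0.296 TPM in Idh2R172K/+ (4.14 ± 0.15, adjusted p = 7.32e-06). Padi4, which converts arginine to citrulline in histones and other proteins, had 36.9, 22.3, 45.9 and 37.2 TPM in Tet2-/- and 0.949, 1.66, 1.05 and 1.42 TPM in Idh2R172K/+ (3.98 ± 0.23, adjusted p = 3.44e-05). Neither gene overlapped between the mutants. WT libraries had 15.4 to 19.3 TPM of Nr0b2, below the Tet2-/- libraries, and 44.6 to 53.2 TPM of Padi4, a range that only Tet2-/- replicate 3 reached. Gdf3, a ligand of the TGF-beta family, was higher by 3.58 ± 0.32, Ly9, a receptor of the SLAM family, by 3.50 ± 0.18, and the thromboxane receptor Tbxa2r by 3.28 ± 0.14. Psma8, a proteasome subunit known from the testis, had 11.9 to 19.9 TPM in Tet2-/- and 0 to 1.24 TPM in Idh2R172K/+. Other large rises were the adaptor Hsh2d (2.54 ± 0.23), the endocytic protein Fcho1 (2.55 ± 0.22), Dkkl1 (2.54 ± 0.21) and Rps4l (3.34 ± 0.30), whose reads may be shared with near-identical ribosomal protein genes.

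Among named genes other than immunoglobulin segments the largest fall was that of Perp, a membrane protein of cell junctions and a p53 target. Perp (ENSMUSG00000019851, chr10:18845020-18857073 in mm10, plus strand) had 5.88, 2.52, 6.06 and 5.98 TPM in Tet2-/- and 84.1, 102, 106 and 87.8 TPM in Idh2R172K/+, an 18.6-fold higher mean in Idh2R172K/+ (log2 difference -4.02 ± 0.24, adjusted p = 3.47e-05). The Tet2-/- libraries 1, 3 and 4 were within the WT range of 5.55 to 6.86 TPM, and all Idh2R172K/+ libraries were far above it. Smagp, a small transmembrane glycoprotein of epithelia, had 2.31, 2.61, 2.23 and 2.75 TPM in Tet2-/- and 23.4, 31.3, 33.8 and 29.9 TPM in Idh2R172K/+ (-3.13 ± 0.16, adjusted p = 2.17e-05), with Tet2-/- libraries 1, 2 and 4 inside the WT range of 2.28 to 3.20 TPM. Gpc3, a heparan sulphate proteoglycan of the cell surface, had 12.4, 10.1, 16.5 and 15.5 TPM in Tet2-/- and 58.7, 83.1, 80.4 and 58.3 TPM in Idh2R172K/+ (-2.29 ± 0.20, adjusted p = 0.000188). Spats2 (-2.44 ± 0.16), the transporter Slc16a12 (-2.37 ± 0.41), the formin-related Fhdc1 (-2.46 ± 0.33), the GDNF receptor Gfra1 (-2.33 ± 0.22) and the secreted Igfbp7 (-2.48 ± 0.45) were also lower in Tet2-/-. Igfbp7 varied most among these in Idh2R172K/+, with 5.36, 15.8, 6.85 and 28.7 TPM, against 0.733 to 1.77 TPM in Tet2-/-. Among more abundant genes the extracellular matrix protein Emilin2 (-1.85 ± 0.35), the PDGF receptor Pdgfrb (-1.63 ± 0.35) and Tmem246 (-1.67 ± 0.20) were lower. Pdgfrb kept the call under 12 of 18 alternatives.

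A single gene showed the opposite layout, with Idh2R172K/+ at the WT level and Tet2-/- near 0. Sva, a seminal vesicle antigen gene (ENSMUSG00000023289, chr6:42038394-42042851, plus strand), was listed at 0, 0, 0.135 and 0 TPM in Tet2-/- and at 9.40, 8.95, 8.31 and 11.1 TPM in Idh2R172K/+ (adjusted p = 1.28e-05). All 16 libraries of the other genotypes lay between 6.21 and 12.9 TPM. Over the whole table it was the only gene under 0.5 TPM in every Tet2-/- library and at 5 TPM or more in all 16 others, a search made after its values were seen, and no gene met the same limits for Idh2R172K/+.

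The CpG content upstream of the gene start separated genes by how often they were called. RefSeq gave the 250 bases before the annotated start (GRCm38.p6) for 9273 of 11143 tested protein-coding genes that were looked up, 83.2%. The lookup left out some tested protein-coding genes. It held 636 called higher and 293 called lower, whereas 966 protein-coding genes were called in all. The 9273 genes are therefore under 83.2% of all tested protein-coding genes. Coverage also differed with the call. Among genes looked up, 79.2% of those called higher and 78.2% of those called lower had a sequence, against 83.6% of those not called. The observed over expected number of CpG dinucleotides was under 0.4 in 1505 of the 9273, and 15.5% of these were called higher in Tet2-/- and 3.52% lower. In the other 7768 genes 3.48% were called higher and 2.27% lower. The contrast for higher genes held at both levels of expression: 18.9% against 6.29% for genes with a mean under 10 TPM, and 13.1% against 2.68% for genes at 10 TPM or more. Across 18 alternative settings the share called higher was 1.85 to 7.20 times as large in genes under 0.4 as in the rest, and the corresponding ratio for lower genes was 0.785 to 3.09. These are descriptions of classes of genes, made with no test. The upstream sequences of 4 genes with few CpG and of 2 with many are printed below, 5′ to 3′ on the gene's strand, with each CpG in capitals, because they show the range behind these classes. Klf1, Padi4 and Nr0b2 were higher in Tet2-/-, and Selp, Smagp and Gpc3 were lower.
Klf1: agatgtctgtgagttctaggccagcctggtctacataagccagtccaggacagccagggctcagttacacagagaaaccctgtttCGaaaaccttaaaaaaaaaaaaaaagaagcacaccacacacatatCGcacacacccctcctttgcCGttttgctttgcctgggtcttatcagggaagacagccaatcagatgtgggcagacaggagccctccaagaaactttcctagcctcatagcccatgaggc
Padi4: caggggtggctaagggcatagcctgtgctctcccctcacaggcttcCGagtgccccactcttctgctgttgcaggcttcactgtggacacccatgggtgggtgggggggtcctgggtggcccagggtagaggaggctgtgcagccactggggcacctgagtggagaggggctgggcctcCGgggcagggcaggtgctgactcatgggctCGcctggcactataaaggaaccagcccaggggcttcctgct
Nr0b2: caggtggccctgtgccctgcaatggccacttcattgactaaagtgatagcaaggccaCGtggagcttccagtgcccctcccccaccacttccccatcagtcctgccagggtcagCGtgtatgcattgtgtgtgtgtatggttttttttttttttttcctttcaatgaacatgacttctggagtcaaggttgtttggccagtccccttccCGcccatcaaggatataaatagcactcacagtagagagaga
Selp: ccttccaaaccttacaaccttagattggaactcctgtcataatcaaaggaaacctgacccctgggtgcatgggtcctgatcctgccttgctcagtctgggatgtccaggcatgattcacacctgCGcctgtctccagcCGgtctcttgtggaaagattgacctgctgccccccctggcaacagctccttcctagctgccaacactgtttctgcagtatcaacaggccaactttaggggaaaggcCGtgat
Smagp: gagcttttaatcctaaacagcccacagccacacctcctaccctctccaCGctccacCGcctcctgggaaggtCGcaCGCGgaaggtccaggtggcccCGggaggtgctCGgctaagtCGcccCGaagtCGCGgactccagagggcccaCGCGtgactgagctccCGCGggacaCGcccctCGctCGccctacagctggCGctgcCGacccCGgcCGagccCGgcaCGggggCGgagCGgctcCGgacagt
Gpc3: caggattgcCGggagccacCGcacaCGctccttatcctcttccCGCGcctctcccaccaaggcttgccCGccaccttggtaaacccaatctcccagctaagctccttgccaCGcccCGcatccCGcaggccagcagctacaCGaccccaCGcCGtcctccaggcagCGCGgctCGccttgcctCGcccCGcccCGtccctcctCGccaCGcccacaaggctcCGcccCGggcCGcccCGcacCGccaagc
The windows were chr8:84901732-84901981 (plus strand) for Klf1, chr4:140774204-140774453 (minus) for Padi4, chr4:133553126-133553375 (plus) for Nr0b2, chr1:164115014-164115263 (plus) for Selp, chr15:100636941-100637190 (minus) for Smagp and chrX:52613975-52614224 (minus) for Gpc3. Klf1, Padi4, Nr0b2 and Selp had 3 CpG each, with ratios of 0.20, 0.11, 0.19 and 0.17, while Smagp had 27 and Gpc3 had 25, with ratios of 0.88 and 0.94. Selp is thus a lower gene with the same few CpG as the higher ones. The RefSeq set holds no sequence for every gene, and Perp and Car1 are among those not shown.

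**Figure D3:**
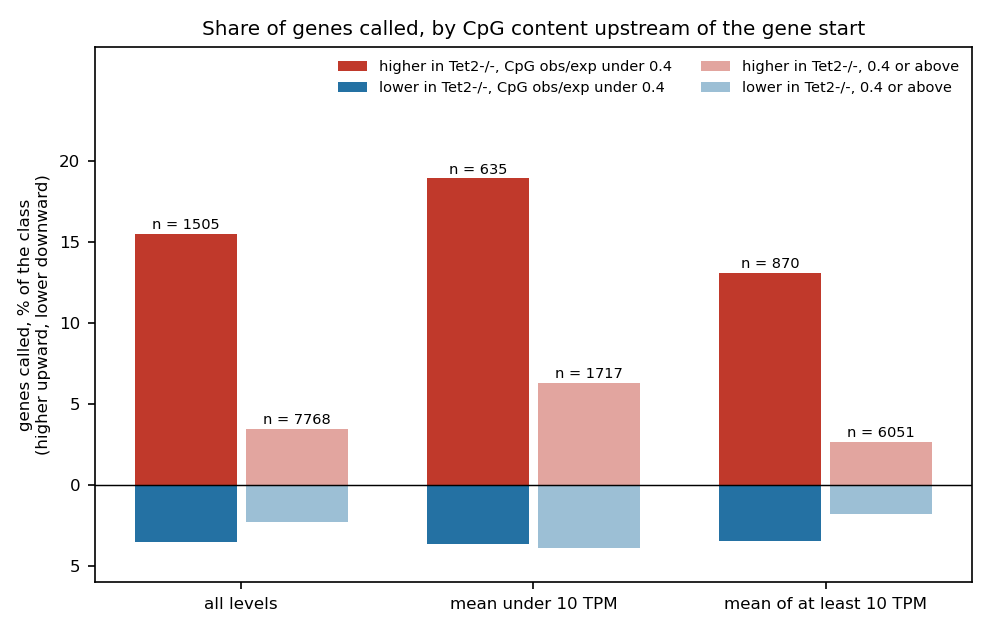
Share of genes called higher (upward) and lower (downward) in Tet2-/-, in % of each class, for genes with a CpG observed over expected ratio under 0.4 (dark) and at or above it (pale) in the 250 bases upstream, at all levels and split at a mean of 10 TPM. Dark red bars stand at 15.5, 18.9 and 13.1%, and pale red bars at 3.48, 6.29 and 2.68%.

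Genes of the red cell lineage were higher in Tet2-/-. Of 24 tested genes of erythroid priming 14 were called, all of them higher, against 5.57% of all genes, and the list's median log2 difference was 0.93, against -0.06 over all genes. Klf1 (ENSMUSG00000054191), the transcription factor that switches on globin and other red cell genes, had 30.5, 28.7, 24.9 and 28.9 TPM in Tet2-/- and 7.22, 6.90, 9.20 and 7.65 TPM in Idh2R172K/+ (1.75 ± 0.14, adjusted p = 0.000156). Gata1, the X-linked factor that specifies erythroid and megakaryocyte cells, had 33.2, 24.6, 28.5 and 31.7 TPM in Tet2-/- and 7.77, 9.86, 11.1 and 9.04 TPM in Idh2R172K/+ (1.55 ± 0.16, adjusted p = 0.000504). Both genes were 3-fold or more higher in mean TPM in Tet2-/- than in Idh2R172K/+, with no overlap, and both were highest outside the comparison: WT libraries had 48.2 to 63.2 TPM of Klf1 and 41.4 to 52.9 TPM of Gata1. Car1, a carbonic anhydrase made early in the erythroid line, had 265, 250, 281 and 357 TPM in Tet2-/- and 10.5, 35.7, 25.6 and 28.8 TPM in Idh2R172K/+ (3.58 ± 0.33, adjusted p = 0.000249), while WT libraries had 426 to 611 TPM. So for Klf1, Gata1 and Car1 the Tet2-/- libraries lay below every WT library and above every Idh2R172K/+ library.

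The rest of the erythroid list ran the same way where it passed the test. Rhd, a blood group protein of the red cell membrane, had 13.1 to 16.2 TPM in Tet2-/- and 2.83 to 4.78 TPM in Idh2R172K/+ (1.75 ± 0.17), with no overlap. Sphk1, which makes sphingosine 1-phosphate, had 3.52 to 5.99 TPM in Tet2-/- and 0.473 to 0.791 TPM in Idh2R172K/+ (1.74 ± 0.17). Ermap (1.61), the water channel Aqp1 (1.14), Tspo2 (1.38), Ces2g (2.18), Add2 (0.98), Blvrb (0.89), Car2 (1.08) and the erythropoietin receptor Epor (0.69) were among the other log2 differences that were called. The transferrin receptor Tfrc was not called (0.43, adjusted p = 0.35). Differences above 0 were seen in 18 of the 24 tested members, against 44.4% of all genes. For 2 members, neither of them called, every Tet2-/- library lay below every Idh2R172K/+ library, a layout seen in 13.7% of all genes. Of 27 tested genes of haem synthesis and iron handling 2 were called, Alad (0.72) and the ferritin chain Fth1 (0.77). Both were higher, a share near the 5.57% of all genes. Without Tet2-/- replicate 2 the list had 6 higher and 3 lower, in a fit that called 1426 and 845 of all 14444 genes. Red cell markers were few in TPM: their summed level was 129 to 166 TPM in Tet2-/- and 68.2 to 92.4 TPM in Idh2R172K/+, with 5 of 9 tested members called higher. Without Tet2-/- replicate 2 the erythroid count was again 14, and without each other library in turn it was 13 or 14. The red cell count was 3 without Tet2-/- replicate 4, Idh2R172K/+ replicate 1 or Idh2R172K/+ replicate 3. In bulk RNA, fewer cells of a type and less RNA per cell cannot be told apart, here and in what follows.

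Megakaryocyte and platelet genes went the other way. Of 20 tested members 5 were called lower and 1 higher, against 2.40% and 5.57% of all genes, and the list median was -0.86. Selp, the adhesion receptor P-selectin, had 42.6, 17.4, 78.1 and 61.3 TPM in Tet2-/- and 156, 204, 215 and 203 TPM in Idh2R172K/+ (-2.12 ± 0.39, adjusted p = 0.0119). Itga2b, the integrin chain CD41, had 102, 36.8, 108 and 93.6 TPM in Tet2-/- and 185, 221, 199 and 292 TPM in Idh2R172K/+ (-1.48 ± 0.33, adjusted p = 0.0259). Neither gene overlapped between the groups, Tet2-/- replicate 2 was the lowest for both, and the Idh2R172K/+ libraries also lay above the WT range (26.7 to 60.9 TPM for Selp and 90.9 to 133 TPM for Itga2b). Its partner Itgb3 (-1.74 ± 0.38), the platelet glycoprotein Gp5 (-1.99 ± 0.36) and the granule-docking protein Rab27b (-1.22 ± 0.25) were also lower. Itga2b and Itgb3 kept their calls under 12 and 11 of 18 alternatives. Platelet factor 4 was the exception: Pf4 had 103, 156, 89.0 and 128 TPM in Tet2-/- and 54.9, 74.4, 25.9 and 32.1 TPM in Idh2R172K/+ (1.41 ± 0.32, adjusted p = 0.0304). Vwf was not called (0.14, adjusted p = 0.815). Without Tet2-/- replicate 2, 9 members were lower and 2 higher, and the median was -0.55. That fit called 845 of all 14444 genes lower and 1426 higher. The lower count was 3 without Tet2-/- replicate 4, Idh2R172K/+ replicate 3 or Idh2R172K/+ replicate 4, and 2 without Idh2R172K/+ replicate 2. Over all genes those fits called 110 to 210 lower.

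**Figure D4:**
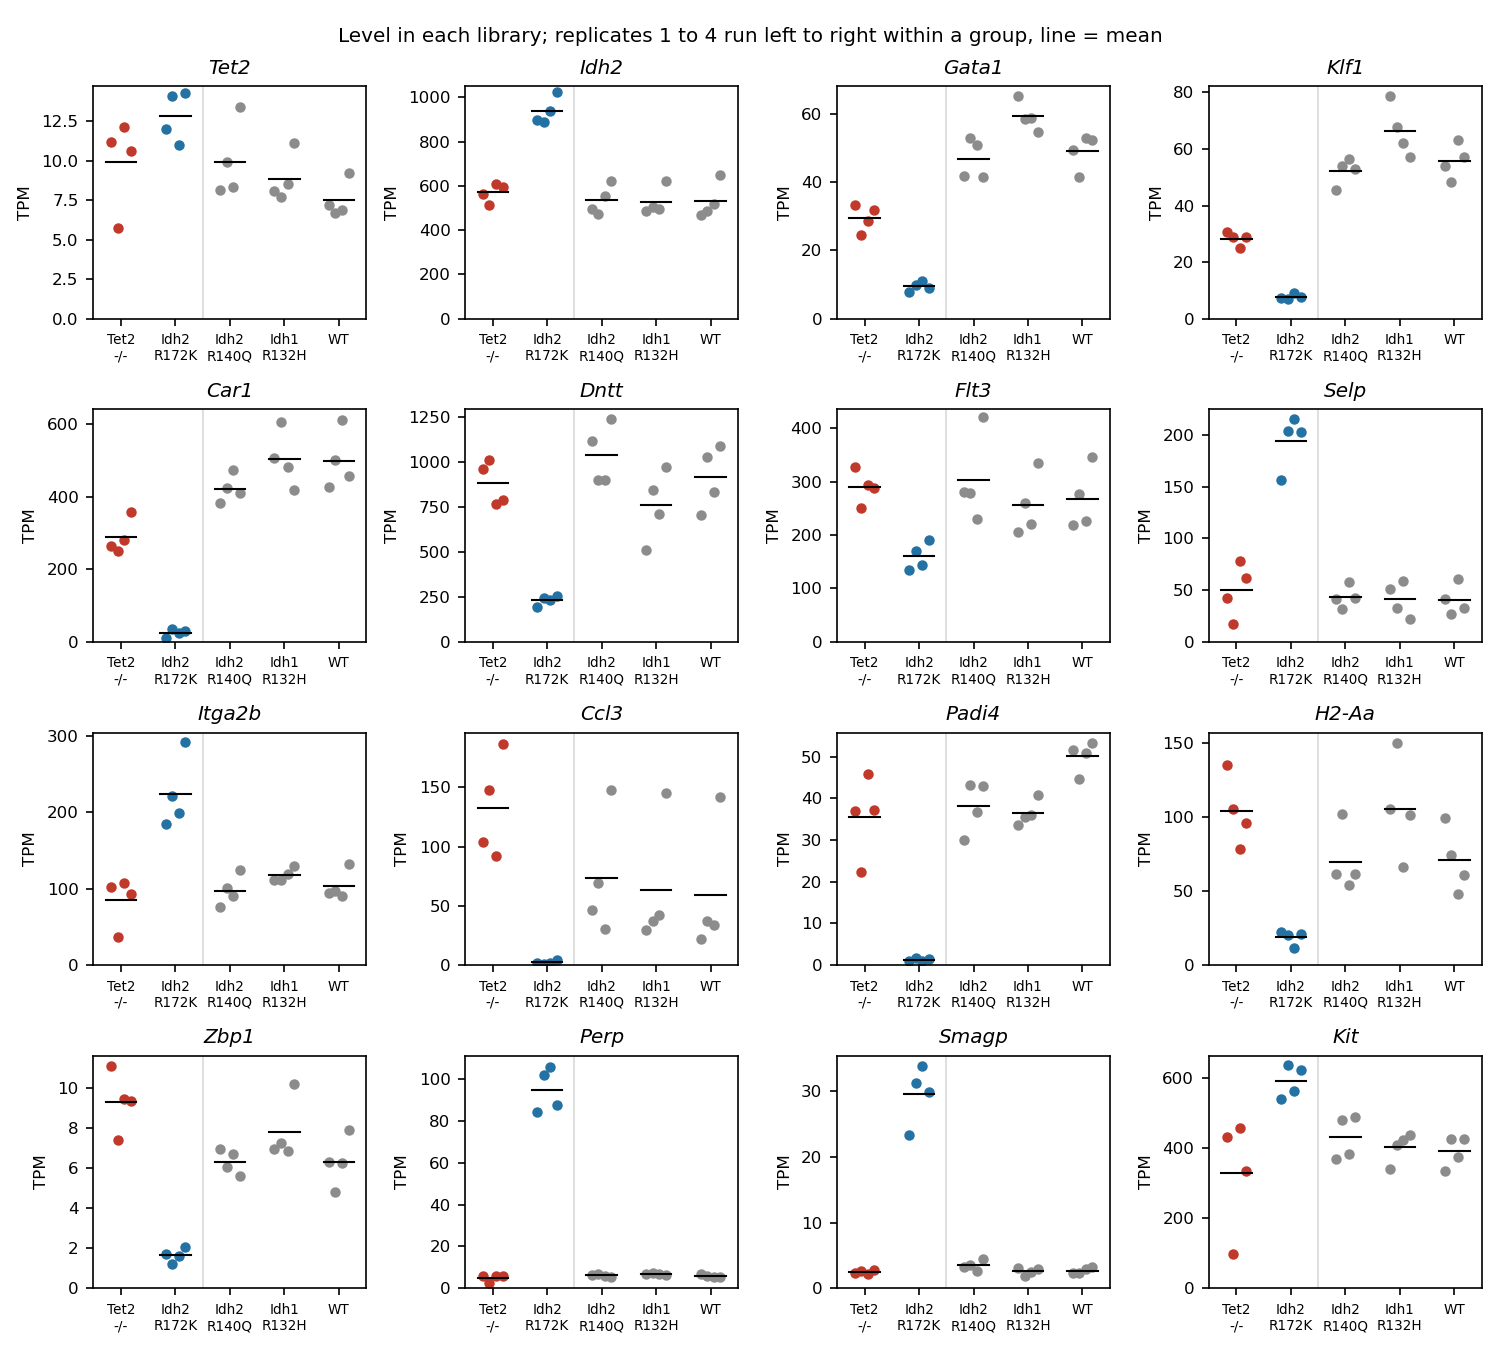
TPM of 16 genes in each library (linear axes from 0), with Tet2-/- (red) and Idh2R172K/+ (blue) left of the vertical line and the other 3 genotypes (grey) to its right; points are replicates 1 to 4 and bars are means. Klf1 in Tet2-/- runs from 24.9 to 30.5 TPM, in Idh2R172K/+ from 6.90 to 9.20 TPM and in WT from 48.2 to 63.2 TPM, while Perp, Smagp, Selp and Itga2b are highest in Idh2R172K/+.

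Granulocyte and monocyte genes were higher in Tet2-/- in 9 of 30 tested members and lower in 1, against 5.57% and 2.40% of all genes, with a list median of 0.42. Ctsg, the granule protease cathepsin G, had 504, 775, 586 and 789 TPM in Tet2-/- and 161, 292, 228 and 237 TPM in Idh2R172K/+ (1.53 ± 0.20, adjusted p = 0.00208). The hexokinase Hk3 had 59.9 to 95.0 TPM in Tet2-/- and 26.0 to 34.4 TPM in Idh2R172K/+ (1.38 ± 0.17), without overlap. The inhibitory lectin Clec12a had 57.3 to 75.8 TPM in Tet2-/- and 23.4 to 29.3 TPM in Idh2R172K/+ (1.33 ± 0.14). Irf8, the transcription factor of monocyte and dendritic cells, had 104, 95.9, 88.3 and 94.9 TPM in Tet2-/- and 35.4, 47.8, 59.5 and 44.8 TPM in Idh2R172K/+ (1.03 ± 0.16, adjusted p = 0.00444). The cystatin Cst7 was lower, with 257 to 346 TPM in Tet2-/- and 461 to 552 TPM in Idh2R172K/+ (-0.79 ± 0.12). Mpo, the granule enzyme myeloperoxidase, did not differ beyond its spread: it had 2411, 2184, 2598 and 2946 TPM in Tet2-/- and 2243, 2755, 2600 and 2179 TPM in Idh2R172K/+ (0.05 ± 0.11, adjusted p = 0.785).

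Lymphoid priming split by gene. Dntt, the template-independent DNA polymerase of early lymphoid cells, had 962, 1012, 770 and 791 TPM in Tet2-/- and 196, 242, 232 and 257 TPM in Idh2R172K/+ (1.92 ± 0.13, adjusted p = 6.49e-05). Flt3, the cytokine receptor of multipotent and lymphoid-primed progenitors, had 327, 250, 293 and 288 TPM in Tet2-/- and 135, 170, 144 and 190 TPM in Idh2R172K/+ (0.86 ± 0.14, adjusted p = 0.00524). For Dntt and Flt3 all Tet2-/- libraries were above all Idh2R172K/+ libraries. The Tet2-/- values of Dntt lay within the WT range (705 to 1092 TPM). WT libraries 1 to 4 had 219, 277, 226 and 346 TPM of Flt3, and the top of that range came from WT replicate 4. Cd27, a TNF-receptor family member of maturing progenitors (1.26 ± 0.13), and the signalling adaptor Blnk (1.21 ± 0.18) were also higher. The recombinase genes, which are neighbours, moved apart: Rag2 had 6.54 to 9.26 TPM in Tet2-/- and 3.02 to 5.21 TPM in Idh2R172K/+ (0.86, adjusted p = 0.0255), and Rag1 had 0.382 to 1.10 TPM in Tet2-/- and 2.33 to 2.61 TPM in Idh2R172K/+ (-1.07, adjusted p = 0.00572). In all 5 of 24 tested members were called higher and 2 lower, against 5.57% and 2.40% of all genes, with a median of 0.13. The list had 8 higher and 3 lower without Tet2-/- replicate 2, in a fit that called 1426 and 845 of all 14444 genes.

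Stem cell genes ran both ways. Of 35 tested members 5 were called higher and 1 lower, against 5.57% and 2.40% of all genes, and the median was -0.03. There were 6 higher and 4 lower, and a median of 0.06, without Tet2-/- replicate 2. Prdm16, a transcriptional regulator that maintains stem cells, had 10.0, 5.49, 11.7 and 9.89 TPM in Tet2-/- and 1.44, 2.09, 1.35 and 1.66 TPM in Idh2R172K/+ (1.93 ± 0.23, adjusted p = 0.00103). Ndn, the imprinted necdin gene (0.91 ± 0.15), and the interferon-inducible Ifitm1 (0.62 ± 0.11) were higher too, and Mycn was lower (-0.85, adjusted p = 0.0181). Procr, the endothelial protein C receptor that marks stem cells, had 49.7, 26.3, 43.7 and 37.1 TPM in Tet2-/- and 24.9, 28.3, 26.4 and 45.8 TPM in Idh2R172K/+, with overlap and no call (adjusted p = 0.397). Hlf, a stem cell transcription factor, was close to 0 in log2 difference (-0.03 ± 0.26, adjusted p = 0.948), with a sign that depended on the setting. Of 49 blood transcription factors 8 were higher and 1 lower; besides Gata1, Klf1, Irf8 and Prdm16, the T-lineage factor Tcf7 had 5.06 to 8.27 TPM in Tet2-/- and 1.39 to 2.33 TPM in Idh2R172K/+ (1.49 ± 0.20). These factors had 9 higher and 2 lower without Tet2-/- replicate 2. Of 33 cytokine receptors and feedback genes 3 were higher and 3 lower. Without that library 6 were higher and 9 lower, in a fit that called 1426 and 845 of all 14444 genes. Socs3, an inhibitor of cytokine signalling through STAT3, had 34.5, 21, 38 and 31.2 TPM in Tet2-/- and 61.8, 101, 74.1 and 114 TPM in Idh2R172K/+ (-1.46 ± 0.24, adjusted p = 0.00643). The interleukin receptor Il18r1 was at 0.793 to 2.94 TPM in Tet2-/- and at or under 0.209 TPM in Idh2R172K/+ (1.47 ± 0.26), and Cd200r4 was lower (-2.66 ± 0.16).

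**Figure D5:**
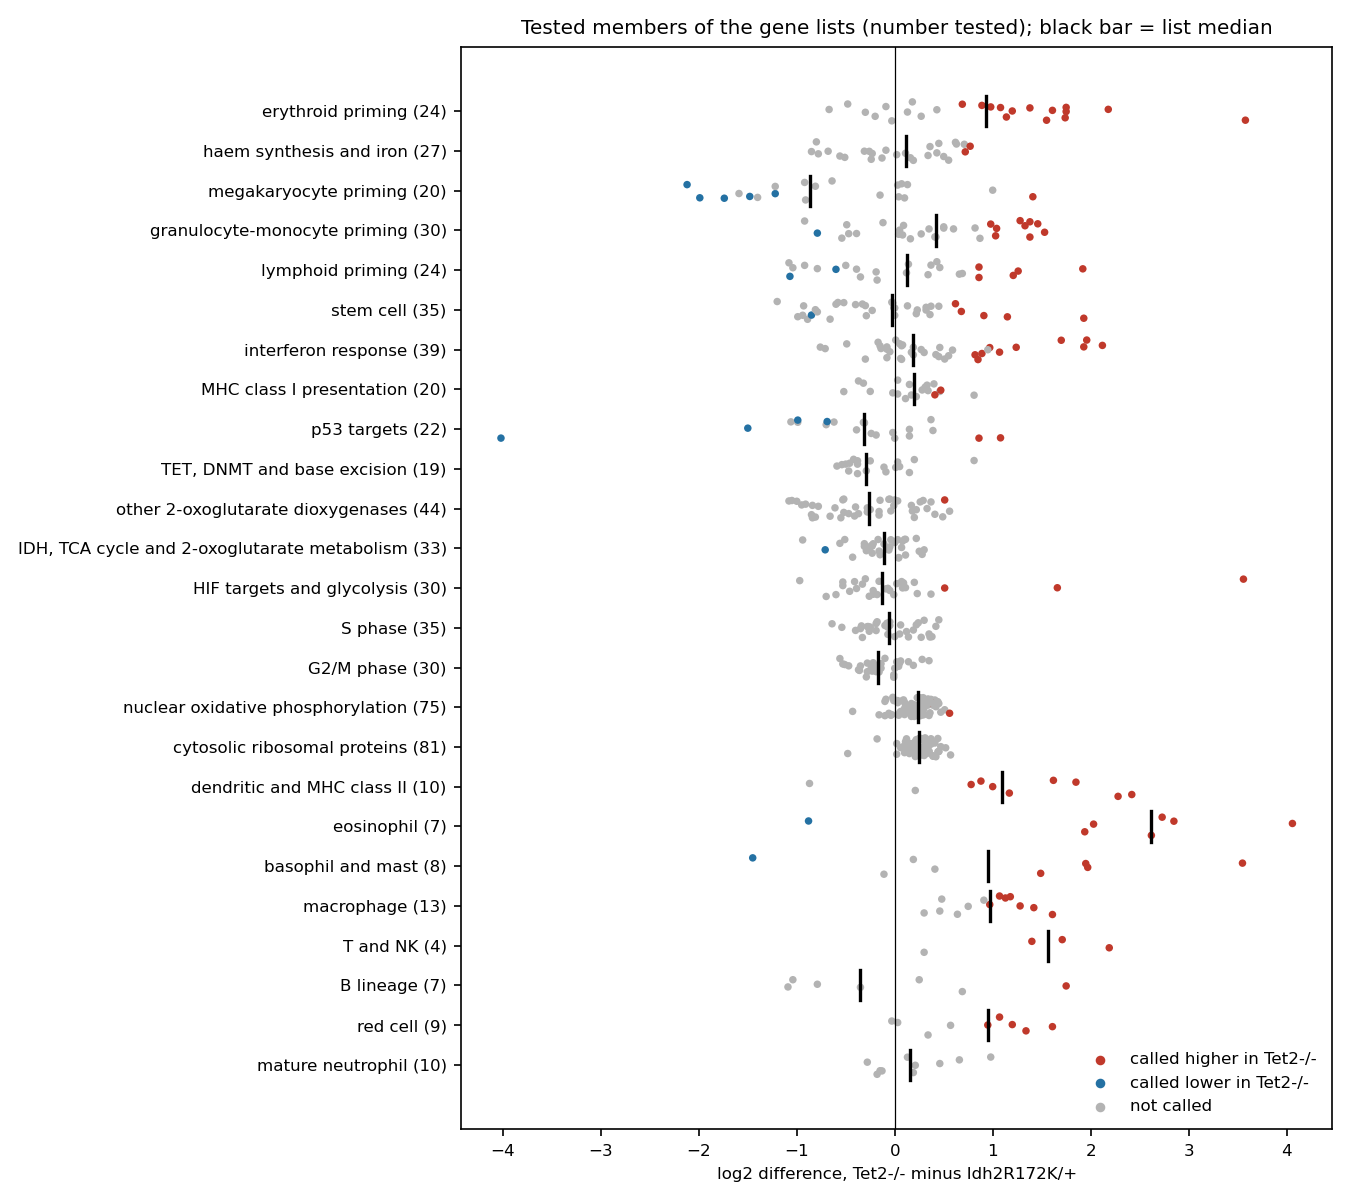
Log2 difference (Tet2-/- minus Idh2R172K/+) of every tested member of 25 gene lists, with the number tested in brackets, called members in red (higher) or blue (lower), and the list median as a black bar. Erythroid members sit mostly right of 0 (median 0.93), megakaryocyte members left of it (median -0.86), and the S phase and G2/M lists have no called member.

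Of 39 tested interferon response genes 10 were called, all higher in Tet2-/-, against 5.57% of all genes, with a list median of 0.19. Zbp1, a sensor of nucleic acids, had 11.1, 7.39, 9.42 and 9.32 TPM in Tet2-/- and 1.69, 1.19, 1.63 and 2.04 TPM in Idh2R172K/+ (1.96 ± 0.17, adjusted p = 0.000223). Oas2, which makes the second messenger that activates RNase L, had 8.14 to 15.7 TPM in Tet2-/- and 1.68 to 3.71 TPM in Idh2R172K/+ (1.93 ± 0.24). Neither gene overlapped, and WT ran at 4.78 to 7.90 TPM for Zbp1. WT libraries 1 to 4 had 4.96, 3.88, 3.50 and 12.7 TPM of Oas2. Ifi27l2a (2.12 ± 0.30), the chemokine Cxcl10 (1.70 ± 0.26), Mx1 (1.24) and the transcription factor Irf7 (0.97) were among the others. Without Tet2-/- replicate 2 the count was 17 higher and 1 lower and the median 0.37. That fit called 1426 higher and 845 lower of 14444 genes, with a median of 0.03 over all genes. Without Tet2-/- replicate 4 the count was 5 higher, in a fit that called 425 of 14399 genes higher. In the list of MHC class I presentation 2 of 20 members were called, the immunoproteasome subunits Psmb8 (0.47 ± 0.10) and Psmb9 (0.41 ± 0.09), against 7 without Tet2-/- replicate 2 and 0 without Tet2-/- replicate 3, Tet2-/- replicate 4, Idh2R172K/+ replicate 2 or Idh2R172K/+ replicate 3. Of 20 tested genes of the NF-kB response Tnf (1.78 ± 0.17), Ccl3 and Cd83 (0.85 ± 0.22) were higher and Bcl3 was lower (-1.32 ± 0.33). Cd83 kept its call under 8 of 17 alternatives and Bcl3 under 9 of 18. Tnf was at 5.47 to 6.99 TPM in Tet2-/- and 0.851 to 1.53 TPM in Idh2R172K/+. WT libraries 1 to 4 had 1.19, 2.17, 2.42 and 10.4 TPM, so only WT replicate 4 lay above the Tet2-/- libraries. WT replicates 1 to 3 lay below them, and Idh2R172K/+ libraries 1 and 2 lay below every WT library. Replicate 4 was the highest in every genotype but Tet2-/-. Of 25 immediate early and heat shock genes only Fos was called (2.20 ± 0.50, adjusted p = 0.0305), at 190, 379, 231 and 832 TPM in Tet2-/- and 55.5, 52.4, 61.9 and 167 TPM in Idh2R172K/+, with replicate 4 the highest in both.

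Markers of several more mature cell types differed between the mutants, and their counts stand against 5.57% of all genes called higher and 2.40% lower. Of 10 tested MHC class II and dendritic genes 8 were called, all higher (median 1.09), and their summed level was 1250 to 1671 TPM in Tet2-/- and 484 to 609 TPM in Idh2R172K/+, against 855 to 1342 TPM in WT. H2-Aa, the class II alpha chain, had 135, 105, 78.3 and 96.2 TPM in Tet2-/- and 22.4, 20.2, 11.4 and 21.1 TPM in Idh2R172K/+ (2.42 ± 0.24, adjusted p = 0.000411). H2-Ab1 (1.85 ± 0.16), H2-DMb1 (1.00 ± 0.11) and H2-DMa (0.78 ± 0.08) were higher with it, while Itgax (0.21, adjusted p = 0.546) and Siglech (-0.88, adjusted p = 0.0882), antigens of dendritic cells themselves, were not called. Eosinophil genes were called higher in 6 of 7 tested members and lower in 1. Prg2, the major basic protein of eosinophil granules, had 140, 152, 164 and 168 TPM in Tet2-/- and 11, 4.21, 7.34 and 14 TPM in Idh2R172K/+ (4.06 ± 0.29, adjusted p = 8.79e-05), Prg3 rose by 2.03 ± 0.26 and Epx by 2.85, and Siglecf was lower (-0.88). Ear1 and Ear6 were higher as well, but they belong to a family of near-identical ribonucleases whose reads may be split. Both averaged under 1 TPM in Idh2R172K/+ and passed the filter only through their Tet2-/- levels. WT libraries 1 to 4 had 206, 44.7, 92.6 and 90.7 TPM of Prg2. Only WT replicate 1 lay above the Tet2-/- libraries, and the others lay below them.

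Basophil and mast cell genes split: 4 of 8 tested members were higher and 1 lower, against 5.57% and 2.40% of all genes. Prss34, a basophil protease, had 213, 175, 236 and 291 TPM in Tet2-/- and 35.7, 12.2, 14.8 and 17.3 TPM in Idh2R172K/+ (3.55 ± 0.30, adjusted p = 0.000188), and Ms4a2 (1.95 ± 0.22), Fcer1a (1.97) and Il4 (1.49 ± 0.18) were higher with it. The mast cell carboxypeptidase Cpa3 was lower, with 122, 86.0, 92.4 and 106 TPM in Tet2-/- and 341, 251, 229 and 303 TPM in Idh2R172K/+ (-1.45 ± 0.16, adjusted p = 0.000755). Mir7007 (-2.65 ± 0.24) lies inside Cpa3 on the same strand (chr3:20222290-20222359 within chr3:20215620-20242181), so its reads and those of Cpa3 transcripts cannot be separated here. Of 13 tested macrophage genes 7 were called, all higher (median 0.97; 5 to 10 with 1 library left out), with a summed level of 234 to 258 TPM in Tet2-/- and 97.3 to 119 TPM in Idh2R172K/+: the complement chains C1qa (1.61 ± 0.19) and C1qb (1.42 ± 0.17), the lysosomal Cd68 (1.13 ± 0.12) and the transcription factor Spic (1.07 ± 0.15) were among them, and Adgre1 was not called (0.64, adjusted p = 0.0809). The T and NK list held 14 genes, of which only 4 passed the filter and were tested. Of these 4, Lck (2.19 ± 0.16), Cd4 (1.71 ± 0.25) and Klrb1c (1.40 ± 0.28) were higher. The summed level of the list was 61.2 to 72.6 TPM in Tet2-/- and 15.5 to 21.3 TPM in Idh2R172K/+. Cd3e was at or under 1.08 TPM in both. In the B-lineage list only Cd79b was called (1.75 ± 0.17) of 7 tested. In the mature neutrophil list limma called 0 of 10, with 1 at an unadjusted p under 0.05, against 4184 of all 14455 genes. The part that other cells had in any result above was not tested.

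Genes tied to the mutated enzymes themselves are set against the 7.97% of all genes that were called, a share that would be few genes in lists of this size. Of 19 genes of the TET, DNMT and base excision list limma called 0. An unadjusted p under 0.05 was seen for 3, against 4184 of all 14455 genes, and 2 did not overlap, against 25.2% of all genes. Tet1 had 15.2, 8.40, 15.3 and 13.1 TPM in Tet2-/- and 20.3, 21.3, 18.2 and 19.0 TPM in Idh2R172K/+ (-0.59 ± 0.19, adjusted p = 0.0915). The groups did not overlap for Tet1, and it passed the test under 6 of 18 alternatives, whereas Tet3 overlapped (-0.29, adjusted p = 0.234). In the list of other 2-oxoglutarate dioxygenases 1 of 44 was called, the prolyl hydroxylase Egln3 that marks HIF for degradation (0.51 ± 0.13, adjusted p = 0.048). Egln3 kept the call under 8 of 18 alternatives. The dioxygenase list had 4 higher and 4 lower without Tet2-/- replicate 2, in a fit that called 1426 and 845 of all 14444 genes. In the list of IDH, TCA cycle and 2-oxoglutarate metabolism only Idh2 was called of 33, and without Tet2-/- replicate 2 there were 2 higher and 1 lower. The HIF and glycolysis list had 3 of 30 called, all higher, against 5.57% of all genes, and 4 higher and 3 lower without Tet2-/- replicate 2. The 3 were Egln3, Ldhb (1.66 ± 0.17), a lactate dehydrogenase chain, and Fbp1, the gluconeogenic enzyme that opposes phosphofructokinase. Fbp1 had 45.4, 28, 35.0 and 35.8 TPM in Tet2-/- and 2.48, 2.41, 1.25 and 2.46 TPM in Idh2R172K/+ (3.56 ± 0.21, adjusted p = 3.47e-05), without overlap and with WT at 39.3 to 51.3 TPM.

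The p53 list had 4 of 22 members lower and 2 higher, against 2.40% and 5.57% of all genes, with a median of -0.31. The list had 5 lower and 1 higher and a median of -0.10 without Tet2-/- replicate 2, and the higher count was 0 without Tet2-/- replicate 3, Tet2-/- replicate 4 or Idh2R172K/+ replicate 2. Besides Perp, the cell death gene Pmaip1, which encodes Noxa, had 2.99, 1.52, 3.19 and 4.96 TPM in Tet2-/- and 7.79, 11, 12.1 and 10.7 TPM in Idh2R172K/+ (-1.50 ± 0.26, adjusted p = 0.0089). Phlda3, an inhibitor of Akt, was lower (-0.99 ± 0.17), as was Ei24 (-0.69), while the death receptor Tnfrsf10b (0.86 ± 0.18) and Plk2 (1.08) were higher. In limma 0 of 27 DNA damage, 0 of 35 S phase and 0 of 30 G2/M genes were called. An unadjusted p under 0.05 was reached by 4, 6 and 6 of them, against 4184 of all 14455 genes. Mki67, a proliferation marker, had 69.0, 44.4, 69.7 and 59.9 TPM in Tet2-/- and 67.9, 83.0, 74.3 and 85.4 TPM in Idh2R172K/+, with overlap and no call (-0.36 ± 0.16, adjusted p = 0.179). Without Tet2-/- replicate 2, 4 S phase genes were called higher and 0 of the G2/M genes were called. That fit called 1426 higher and 845 lower of all 14444 genes.

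Nuclear genes of oxidative phosphorylation and ribosomal proteins leaned to Tet2-/- by small steps in the main fit. Of tested members 65 of 75 and 79 of 81 had differences above 0 (44.4% of all genes did), with medians of 0.24 and 0.25. Yet limma called 2 and 0, with 20 and 16 at an unadjusted p under 0.05, against 4184 of all 14455 genes. Without Tet2-/- replicate 2 the medians were 0.14 and 0.12, and the median over all genes moved from -0.06 to 0.03. Without that library and Idh2R172K/+ replicate 4 the list medians were 0.09 and 0.05, against 0.06 over all genes. After median-of-ratios scaling of all 8 libraries they were 0.32 and 0.33, against 0.01. Mitochondrially encoded RNA split, with mt-Co1, a subunit of cytochrome c oxidase, at 3594 to 4324 TPM in Tet2-/- and 5330 to 7312 TPM in Idh2R172K/+ (-0.72 ± 0.11, adjusted p = 0.00416), and mt-Cytb, of the preceding complex, at 4132 to 4990 TPM in Tet2-/- and 2743 to 3892 TPM in Idh2R172K/+ (0.48 ± 0.11, adjusted p = 0.0339). The mitochondrial glutamine tRNA mt-Tq was lower in Tet2-/- (-1.79 ± 0.31). mt-Cytb kept its call under 9 of 17 alternatives. After median-of-ratios scaling limma called neither mt-Co1 nor mt-Cytb, whereas mt-Tq was still called (adjusted p = 0.0186). Of 163 tested immunoglobulin variable segments 9 were lower and 1 higher, against 2.40% and 5.57% of all genes, and 5 were lower without Tet2-/- replicate 4 or Idh2R172K/+ replicate 4 and 4 without Idh2R172K/+ replicate 2. Igkv14-126 had 52.8, 1.81, 2.21 and 22.3 TPM in Tet2-/- and 167, 695, 177 and 1319 TPM in Idh2R172K/+ (-5.30 ± 1.05, adjusted p = 0.0164), with a WT range of 54.7 to 590 TPM, so its spread inside a genotype was large and the values of such segments rest on few pools. The 11 plasma cell genes gave 0 calls in limma and 4 at an unadjusted p under 0.05, with summed levels of 1950 to 7094 TPM in Tet2-/- and 5857 to 9803 TPM in Idh2R172K/+. The stroma and endothelium list had 13 members, of which 4 were tested: Sparc (-1.83 ± 0.19) and Pdgfrb were lower, and Emcn (0.90 ± 0.16) and Bgn (1.10 ± 0.26) were higher. Of 52 replication-dependent histone genes 2 were higher, Hist1h2bc (0.95 ± 0.18) and Hist1h2bf (1.16 ± 0.25), a share below the 5.57% of all genes.

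The called genes were spread over the genome. By chromosome the share called was 5.23 to 10.7% of tested genes, and within 5 Mb of the targeted genes it was 5 of 46 for Tet2 (10.9%) and 4 of 66 for Idh2 (6.06%).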

How the data were processed

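RNA of sorted LSK cells was measured by RNA-seq. Per the submitters' processing notes, reads were trimmed with Trim Galore, aligned with STAR to mm10 and counted with featureCounts; versions, annotation release and strand setting are not given in the sources used here. The authors deposited TPM values, which correct each gene's reads for its length and scale every library to 1000000, in 1 table of 46078 Ensembl genes and 20 libraries. TPM is a share, so a gene that takes much of a library lowers all others. Columns were assigned to samples by the mutation and number in their names; the Idh2R140Q/+ columns carry an Idh1 prefix and were assigned by their mutation. Symbols and positions came from GENCODE M21 (45229 IDs matched). Depth was recovered by dividing TPM times exon length by the value of 1 read; 90.1 to 90.9% of values up to 30 reads were then whole within 0.1 reads in these 8 libraries.

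The 4 Tet2-/- and 4 Idh2R172K/+ libraries were fitted with limma 3.58.1 (R 4.3.3) on log2(TPM + 1), with moderated variances that follow the mean level. Tests were 2-sided, and Benjamini-Hochberg adjustment covered all 14455 genes that averaged 1 TPM or more over the 8 libraries. Called means an adjusted p under 0.05. Differences are Tet2-/- minus Idh2R172K/+ with the SE of the fit, n = 4 pools per genotype; on the log2(TPM + 1) scale the change of low genes is understated. The labels call the pools biological replicates. The test was checked on simulated data. Replicate numbers are not used in the fit.

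The genes compared and the 37 gene lists were chosen with earlier results of these data known. Genes are named by a rule: the targeted genes and 12 fixed progenitor genes, the 10 largest rises and falls among non-overlapping called genes at all levels and at a mean of 20 TPM or more, and, from each list, at most 4 called genes ranked by p. List members named outside the rule were chosen after their values were seen. Alternatives were another pseudocount, other filters, 2 scalings, a fit of all 5 genotypes, a replicate block, library weights, no variance trend, leaving out each library, and leaving out Tet2-/- replicate 2 with Idh2R172K/+ replicate 4. Tables and figures used Python 3.11.15, pandas 2.3.3, numpy 2.4.6, scipy 1.17.1 and matplotlib 3.10.9.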

Additional observations from a re-analysis of the deposited data

Results flagged for a closer look

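In 22 of 232 groups of 4 libraries a single library lay far from the other 3 of its genotype; chance alone marks about 1 group in 20. Tet2-/- replicate 2 accounted for 7 of them: it was high for Ly6a (350 TPM), Rps4l (65.8), Ifi27l2a (240) and Klrb1c (7.30), and low for Perp (2.52), Il18r1 (0.793) and Cd83 (1.87). Idh2R172K/+ replicate 4 was high for Procr (45.8 TPM), Psma8 (1.24) and Fos (167) and low for Fth1 (2219).

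In Tet2-/-, replicate 1 was high for Gfra1 (3.73 TPM) and Ighv6-6 (12.5), replicate 4 for Igkv3-5 (18.6) and Igkv4-59 (25.6), and replicate 3 was high for Sva (0.135) and Cd200r4 (3.01) and low for H2-DMa (428). In Idh2R172K/+, replicate 3 was low for Fbp1 (1.25 TPM) and H2-Ab1 (60.8) and high for Ear6 (0.521), and replicate 2 was high for H2-DMb1 (70.2). For all these genes but Procr the Tet2-/- and Idh2R172K/+ libraries did not overlap. This follows from their choice: all but Procr were called genes, and 1142 of the 1152 called genes did not overlap.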

How the results depend on the processing

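Calls with a mean of at least 5 TPM, over fewer genes, were 441 higher, 176 lower and 326 at least 2-fold, against 805, 347 and 633. Median-of-ratios scaling gave 1253 higher and 1133 lower, rescaling without abundant genes 774 lower, the fit of all 5 genotypes 1675 higher and 2151 lower, and library weights 2994 higher and 1519 lower; the causes were not tested. The replicate block gave 428 higher and 96 lower, 81.7% higher. Over all tested genes the deviations of same-numbered libraries had correlations of -0.177, 0.0627, 0.017 and -0.106, with no pairing visible over the genes as a whole. An effect of the number on single genes was not tested. Fos was highest in replicate 4 of every genotype: 832 TPM in Tet2-/-, 167 in Idh2R172K/+, 488 in Idh2R140Q/+, 445 in Idh1R132H/+ and 361 in WT. Leaving out 1 library gave 425 to 1426 higher, 110 to 845 lower and 435 to 665 at least 2-fold: Tet2-/- replicate 2 gave the highest counts in both directions, Tet2-/- replicate 4 the lowest higher count and Idh2R172K/+ replicate 2 the lowest lower count. Without both Tet2-/- replicate 2 and Idh2R172K/+ replicate 4, 2596 were higher and 1010 lower. Under all 18 alternatives 221 genes stayed higher and 50 lower. These counts hold only genes that every fit tested. A gene that a filter or the rescaling left out of a fit is not among them, even where it kept every call, as Sva did under 17 of 17. Of 109 called genes named by the rule, 81 kept the call under every alternative run, 28 lost it at least once (22 under the block) and 0 reversed. Genes near 0 changed sign. Idh1 (-0.05) became 0.03 with median-of-ratios, 0.07 with weights, 0.06 without both libraries and -0.12 to 0.12 with 1 library left out (0.12 without Tet2-/- replicate 2). Hlf (-0.03) became 0.05, 0.27 and 0.30 in the same settings and ran from -0.21 to 0.22 with 1 library left out (0.22 without Tet2-/- replicate 2, 0.00 without Idh2R172K/+ replicate 2 and 0.05 without its replicate 4). Mpo (0.05) ran from -0.02 without Tet2-/- replicate 4 to 0.12, at -0.00 without Idh2R172K/+ replicate 4. Another pseudocount, 2 other filters and 2 scalings gave 183 list medians, of which 14 moved by more than the spread between libraries and 3 changed sign. Under the other 13 alternatives, added for the medians after the data had been seen, 11 of 481 moved so far and 33, in 13 lists, changed sign; 5 of these were without Tet2-/- replicate 2. The deposited TPM values carry no counting error of their own, so precision rests on the spread of 4 pools a genotype.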

Other observations

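Several gene families that no list held stood out once the values had been seen, and they are given as counts with no test, against 5.57% of all tested genes called higher and 2.40% lower. Of 88 constant and joining segments of the T cell receptor only 18 passed the filter and were tested. Among these 10 were called, all higher in Tet2-/-. Trbc1, a constant segment of the beta chain, had 16.5, 23.1, 11 and 12.3 TPM in Tet2-/- and 2.33, 2.74, 2.30 and 3.13 TPM in Idh2R172K/+ (log2 difference 2.16 ± 0.23, adjusted p = 0.000613, limma). Its groups did not overlap, while the joining segments Trbj1-1 and Trbj1-2, short and near-identical to their neighbours, kept the call under 11 and 13 of 18 alternatives. All 5 tested Bex genes, small adaptor genes, were called higher. Bex1 had 14.9, 20.2, 20.2 and 17.3 TPM in Tet2-/- and 2.09, 3.25, 2.49 and 2.19 TPM in Idh2R172K/+ (2.45 ± 0.17, adjusted p = 7.59e-05). Of 11 tested genes of the PYHIN family, which holds sensors of DNA, 7 were called and all were higher. Aim2, whose product builds an inflammasome on DNA, had 29.0, 18.2, 32.0 and 29.2 TPM in Tet2-/- and 2.31, 3.21, 2.83 and 5.24 TPM in Idh2R172K/+ (2.69 ± 0.25, adjusted p = 0.000257). The PYHIN genes lie close together and share sequence, so their reads may be split.

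Integrin chains ran the other way, with 7 of 23 tested lower and 1 higher. Itga9, a receptor for matrix proteins, had 2.52, 2.42, 1.91 and 1.28 TPM in Tet2-/- and 7.25, 10.2, 5.93 and 18 TPM in Idh2R172K/+ (-1.81 ± 0.31, adjusted p = 0.00802), and Itgb6 (-1.58), Itgal (-1.22), Itga6 (-1.18) and Itgb7 (-0.86) were lower too. Of 9 tested collagens and laminins Col18a1 (-1.69) and Lamc1 (-1.53) were lower.

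Xist, the RNA that coats the inactive X, was at 58.3 and 63.4 TPM in the 2 female Tet2-/- pools and at 30.1 and 25.4 TPM in the 2 female Idh2R172K/+ pools. All 8 female pools of the other genotypes lay between 21.7 and 31.1 TPM. With 2 female pools a genotype this was not tested.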
